A study of Mus musculus with 12 samples.

Results

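The genes of the MHC class I pathway were compared between 2 populations of CD4 T cells from the infected mouse spleen. They comprised 10 genes, chosen by name with earlier results of these data known. These were B2m (the light chain), the heavy chains H2-K1, H2-D1, H2-Q7, H2-T22 and H2-T23, the peptide transporter genes Tap1 and Tap2, the loading chaperone gene Tapbp and the transactivator gene Nlrc5. All 10 were found among the 55401 genes of the count files, and all 10 were among the 12015 genes with enough reads to be tested. The cells came from spleens of C57BL/6 mice on day 21 of infection with Leishmania donovani, the protozoan parasite of visceral leishmaniasis. One population, TLCP for short, was sorted on LAG-3+ and CXCR5+ with PD-1lo/int staining among CD4 T cells, and the other as Tfh cells, which the series description gives as CXCR5+ PD-1hi and mostly of the germinal centre. Each population had 6 libraries of poly(A) RNA, the series description gives 6 mice, and no uninfected mice were analysed here. Both populations thus shared the strain, the infection, the day and the tissue, and differed in the sort.

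MHC class I molecules show peptides from inside a cell to CD8 T cells and NK cells, and nearly all nucleated cells, T cells included, make them. A polymorphic or nonclassical heavy chain pairs with beta-2 microglobulin in the endoplasmic reticulum. There the TAP1-TAP2 transporter brings in peptides made by the proteasome, and tapasin, the product of Tapbp, holds the empty molecule at the transporter until a peptide binds. NLRC5 is a transactivator that works at the conserved promoter elements of these genes, and interferons, NF-kB and factors that bind the CCAAT box also act there.

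The libraries held 6939770 to 12688306 reads that fell in genes. The sort was visible in the libraries for Lag3 and Pdcd1, the gene of PD-1. Lag3 stood at 189 ± 31.2 CPM (read counts scaled to a common library size, mean ± SD, n = 6) in TLCP and 40.5 ± 11.1 in Tfh. Pdcd1 stood at 36.6 ± 4.60 and 318 ± 34.8. Cxcr5, on which both populations were sorted, is not given here. T cell markers summed to 3027 to 3889 CPM in TLCP and 4302 to 4689 CPM in Tfh. Of the 8 T cell markers 6 fell in TLCP, 1 rose and 1 did not pass edgeR's test, described below (median log2 fold change -0.39). Over all tested genes 16.4% fell and 16.8% rose, to be read beside each marker count here. Transcripts listed as markers of B cells, plasma cells and basophils were more abundant in TLCP. The 14 B cell markers summed to 5803 to 24996 CPM in TLCP and 1285 to 2676 CPM in Tfh, and 12 of them rose in TLCP. Ighm was the largest part of these sums, with a mean of 10855 CPM in TLCP and 1197 CPM in Tfh. Of 8 plasma cell markers 7 could be tested and all 7 rose, with sums of 868 to 3521 CPM and 165 to 335 CPM. Jchain was the largest part of these sums, at 1533 ± 883 CPM in TLCP and 99.0 ± 46.6 in Tfh. Prdm1 (108 ± 14.3 and 17.6 ± 6.04 CPM) and Irf4 (166 ± 15.1 and 81.0 ± 7.83 CPM) varied less between libraries. Which cells made these transcripts was not tested. Sums of the 6 basophil and mast cell markers were 26.1 to 96.2 CPM and 0.239 to 7.17 CPM, those of the 8 dendritic cell markers 21.0 to 35.1 and 8.05 to 16.2 CPM, those of the 10 macrophage and monocyte markers 29.4 to 117 and 17.2 to 80.5 CPM, and those of the 7 CD8 T cell and NK cell markers 24.5 to 40.5 and 19.7 to 26.7 CPM. Of the tested basophil and mast cell markers 5 of 5 rose, of the dendritic cell markers 3 of 4, and of the macrophage markers 0 of 3, while in the CD8 T cell and NK cell list 1 rose and 1 fell of 4. The NK cell marker Klra8 had 0 reads in all Tfh libraries, and no other marker was at 0 in all libraries of a population. Immunoglobulin genes took the largest shares of reads in TLCP replicates 5 (4.64%) and 4 (3.75%). B cells and the other cells listed also make class I molecules, so their part in the differences described here was not tested. In bulk RNA, fewer cells of a type and less RNA per cell cannot be told apart.

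Promoter sequence was available for 8 of the 10 genes, as RefSeq windows on GRCm38.p6 from 250 bases before to 50 bases after a start site. The following motifs were searched on both strands: GAAANNGAA and GAANNGAAA, the 2 ends of the core of the interferon-stimulated response element, the second added after the sequences were seen; GGGATTCCC, an NF-kB site; CCAAT, the NF-Y site of the Y box; and TGACG, the core of the cyclic AMP response element (CRE), as found in the X2 box. No matches overlapped each other in the sequences printed. The following stretches show matches before the start site in capitals, 5′ to 3′ on the strand of the gene. A second TGACG of B2m, 44 bases after its start site, and a second CCAAT of H2-K1, 8 bases after its start site, lie outside them. H2-K1 has 2 RefSeq start sites, and the second CCAAT lies before the other one, at position -6.
B2m: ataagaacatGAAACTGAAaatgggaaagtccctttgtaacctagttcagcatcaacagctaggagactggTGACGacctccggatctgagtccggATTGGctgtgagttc
H2-K1: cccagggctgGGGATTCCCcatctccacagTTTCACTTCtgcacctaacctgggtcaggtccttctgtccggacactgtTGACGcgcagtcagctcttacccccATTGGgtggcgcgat
H2-Q7: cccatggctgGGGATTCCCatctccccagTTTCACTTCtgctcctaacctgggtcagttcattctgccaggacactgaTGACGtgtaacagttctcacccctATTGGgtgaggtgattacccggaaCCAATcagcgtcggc
H2-T22: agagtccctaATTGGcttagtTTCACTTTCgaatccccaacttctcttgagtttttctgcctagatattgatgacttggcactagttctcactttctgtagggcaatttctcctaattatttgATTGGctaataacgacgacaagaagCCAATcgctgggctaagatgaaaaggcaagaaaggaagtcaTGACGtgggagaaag

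The B2m stretch lies at chr2:122147538-122147648 on the plus strand, that of H2-K1 at chr17:34000349-34000467 on the minus strand, that of H2-Q7 at chr17:35439013-35439153 on the plus strand and that of H2-T22 at chr17:36042750-36042953 on the minus strand. None of these 4 stretches overlapped an exon of GENCODE M21. For H2-D1, H2-T23 and Tap1 the annotation places exons of longer transcripts of H2-D1, H2-T23 and Psmb9 over the matches, and single sites with 10 bases on either side are shown to compare with those above.
H2-D1, interferon element: atctcctcagTTTCACTTCtgcacctaac
H2-D1, NF-kB: cccagggctgGGGATTCCCcatctcctca
H2-T23, interferon element: tcctactgctTTCTCTTTCataaagacac
Tap1, CCAAT: gctcggctttCCAATcagcggctgc

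These sites lie at chr17:35262934-35262962 and chr17:35262914-35262942 (plus strand), chr17:36032806-36032834 (minus strand) and chr17:34187324-34187348 (plus strand). The NF-kB motif was found in H2-K1, H2-D1 and H2-Q7 and in 0.353% of 32851 promoter windows in all. Both sets held a match to the interferon element: GAAANNGAA was found in B2m, H2-T22 and H2-T23 and in 8.56% of all windows, and GAANNGAAA in H2-K1, H2-D1 and H2-Q7 and in 7.52% of all windows. CCAAT occurred in all 8 windows and in 37.4% of all windows, and TGACG in 6 of the 8 and in 20.8% of all. The windows of H2-K1, H2-D1 and H2-Q7 were alike, with 71.3% to 73.7% of the 300 bases identical between pairs, while every other pair among the 8 shared at most 56.7%.

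Most of the 10 described genes were higher in TLCP and none was lower, which was not so for the wider pathway lists given below. Of the 10 genes, 7 rose in TLCP (H2-Q7, Nlrc5, H2-T23, Tap1, Tap2, Tapbp and H2-T22), by 1.21-fold to 1.51-fold, and 3 did not pass the test (B2m, H2-K1 and H2-D1). The test was edgeR's quasi-likelihood test over all 12015 genes with Benjamini-Hochberg adjustment, in which 33.2% of the genes passed in either direction and 16.8% were higher in TLCP. The log2 fold change (TLCP minus Tfh) was positive for all 10, with a median of 0.28, against -0.0041 over all tested genes. In 6 of the 10 the libraries of the populations did not overlap, with TLCP above Tfh, as was so for 8.30% of all tested genes. Since the 10 genes were chosen with earlier results of these data known, these shares describe them and are not a test. The differences were small, and TLCP was above Tfh in 6 of 6 same-numbered pairs for 9 of the 10 genes. The share of all tested genes with 6 of 6 was not counted, so nothing is drawn from that number.

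**Figure D1:**
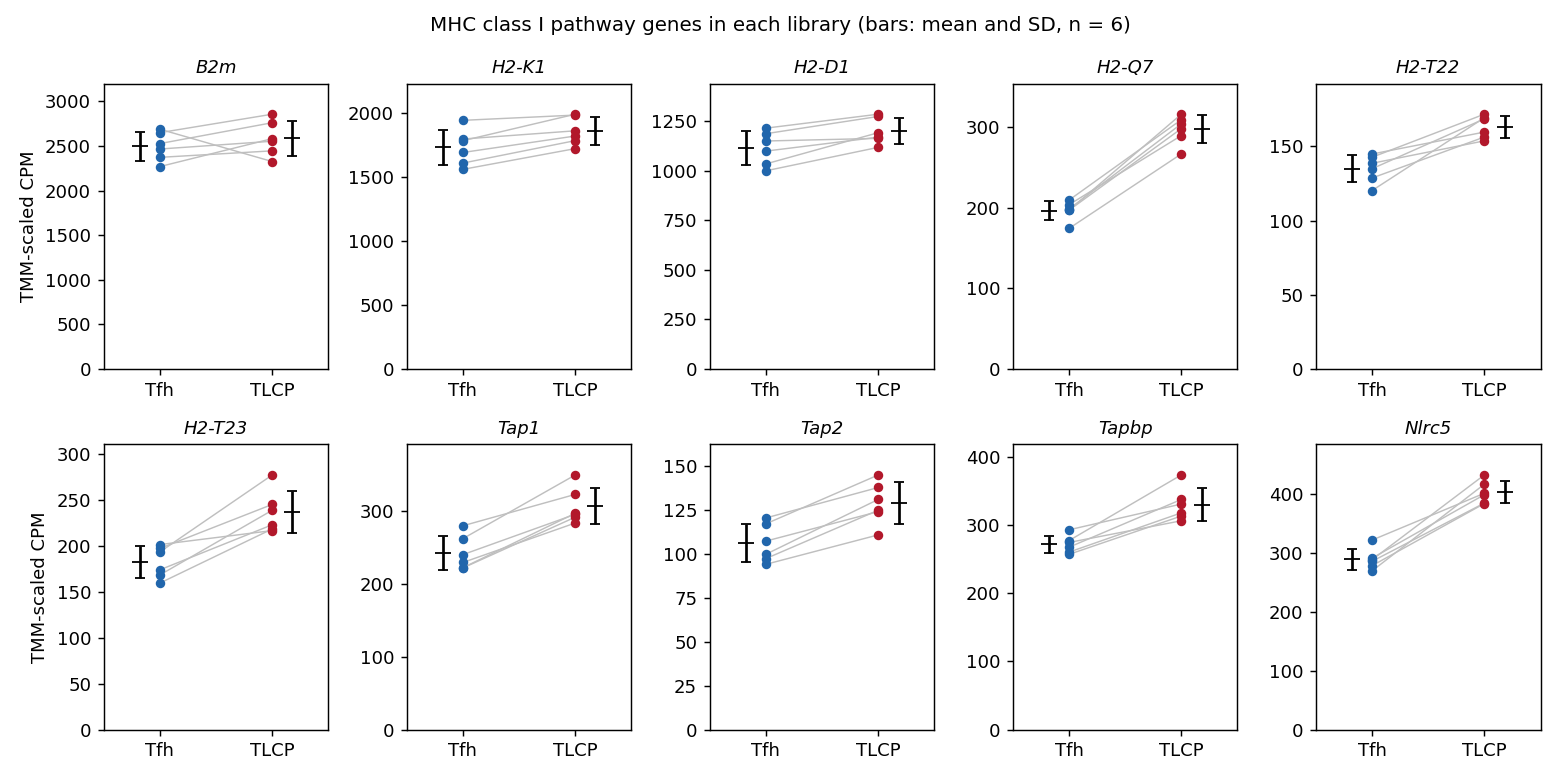
TMM-scaled CPM of each gene (vertical axes, from 0) in the 6 Tfh and 6 TLCP libraries, with lines joining libraries of the same number and bars for the mean and SD. For H2-Q7, H2-T22, H2-T23, Tap1, Tapbp and Nlrc5 every TLCP point lies above every Tfh point, whereas the points of B2m, H2-K1, H2-D1 and Tap2 overlap.

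B2m encodes beta-2 microglobulin, the light chain that every class I heavy chain needs to reach the surface (GRCm38, chr2:122147686-122153083, plus strand, protein coding). Its level ran from 2325 to 2856 CPM in TLCP, with a median of 2568, and from 2269 to 2688 CPM in Tfh, with a median of 2496. The populations overlapped almost fully, and TLCP was higher in 5 of 6 same-numbered pairs. The log2 fold change of 0.05 (SE 0.066, edgeR adjusted p = 0.58) was within the spread between libraries, and it was -0.039 in the libraries numbered 1 to 3 alone and 0.13 in those numbered 4 to 6 alone.

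H2-K1 and H2-D1 encode the classical heavy chains of C57BL/6 mice, H-2Kb and H-2Db, which present peptides to CD8 T cells. H2-K1 (chr17:33996017-34000347, minus strand) ranged from 1718 to 1987 CPM in TLCP, with a median of 1837, and from 1556 to 1939 CPM in Tfh, with a median of 1734. H2-D1 (chr17:35262730-35267499, plus strand) ranged from 1118 to 1285 CPM, with a median of 1180.4, and from 999 to 1215 CPM, with a median of 1124. For both genes the ranges overlapped, but TLCP was the higher library in 6 of 6 same-numbered pairs. The log2 fold change of H2-K1 was 0.10 (SE 0.065, adjusted p = 0.233) and that of H2-D1 was 0.11 (SE 0.063, adjusted p = 0.202), and neither passed edgeR's test. These 2 calls depended on the scaling: with library totals alone, which moved the median of all genes to 0.17 and the share of called genes that were higher in TLCP from 50.6% to 78.2%, both genes stood at 0.28 and passed (adjusted p = 0.0241 and 0.0177).

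The heavy chain with the largest log2 fold change among the 10 genes was H2-Q7, which encodes Qa-2, a nonclassical molecule of limited polymorphism that also binds peptides (chr17:35439155-35443773, plus strand). It ranged from 267 to 316 CPM in TLCP, with a median of 301, and from 174 to 209 CPM in Tfh, with a median of 198. Every TLCP library was above every Tfh library. The difference was 1.51-fold (log2 fold change 0.60, SE 0.060, edgeR adjusted p = 2.7e-07), and it was 0.59 in libraries 1 to 3 and 0.59 in libraries 4 to 6. H2-Q7 resembles other Q region genes: 12% of its 100-base and 26.4% of its 50-base transcript words also occurred in another gene, mostly H2-Q10, H2-Q5 and H2-Q6. Its level is uncertain for this reason, since reads that mapped to several places were counted for no gene. Such reads made up 16.1% to 24.3% of whole libraries, and how many came from H2-Q7 is not known. H2-Q8 and H2-Q9 were not found under those symbols, so words shared with them may not have been counted.

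H2-T23 encodes Qa-1, which shows leader peptides of other class I chains to CD94/NKG2A receptors of NK cells and CD8 T cells, and H2-T22 encodes a molecule seen by a subset of gamma delta T cells. H2-T23 (chr17:36029773-36032855, minus strand) ranged from 217 to 277 CPM in TLCP, with a median of 231, and from 159.5 to 201 CPM in Tfh, with a median of 184. H2-T22 (chr17:36037128-36042747, minus strand) ranged from 154 to 172 CPM, with a median of 164, and from 120.2 to 145 CPM, with a median of 137. Neither gene's ranges overlapped between populations. H2-T23 rose 1.298-fold (log2 fold change 0.38, SE 0.074, edgeR adjusted p = 0.000593) and H2-T22 1.21-fold (0.27, SE 0.061, adjusted p = 0.00177). In libraries 4 to 6 alone H2-T22 no longer passed (0.22, adjusted p = 0.0821). H2-T22 is close in sequence to H2-T10, which held 31.2% of its 50-base words and 6.92% of its 100-base words, so reads of these 2 genes can be lost or shared.

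Tap1 and Tap2 encode the 2 subunits of the peptide transporter. Tap1 (chr17:34187553-34197225, plus strand) ranged from 283 to 349 CPM in TLCP, with a median of 296, and from 222 to 279 CPM in Tfh, with a median of 234. Tap2 (chr17:34203527-34216321, plus strand) ranged from 111 to 145 CPM, with a median of 128, and from 94.1 to 120.5 CPM, with a median of 104. The Tap1 ranges were apart, and the Tap2 ranges overlapped although TLCP was higher in 6 of 6 pairs. Tap1 rose 1.26-fold (log2 fold change 0.34, SE 0.071, edgeR adjusted p = 0.000978) and Tap2 1.22-fold (0.28, SE 0.078, adjusted p = 0.00874). Per length, the ratio of Tap1 to Tap2 was 1.65 ± 0.130 in TLCP and 1.58 ± 0.115 in Tfh (SD, n = 6), so the subunits kept nearly the same ratio. In libraries 4 to 6 alone Tap2 did not pass (0.23, adjusted p = 0.0964).

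Tapbp encodes tapasin, the chaperone that bridges the transporter and the empty heavy chain (chr17:33915899-33929292, plus strand). It ranged from 306 to 374 CPM in TLCP, with a median of 324, and from 257 to 293 CPM in Tfh, with a median of 271. The ranges did not overlap. The rise was 1.21-fold (log2 fold change 0.28, SE 0.060, edgeR adjusted p = 0.00114), of nearly the same size as that of Tap2.

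Nlrc5 encodes the class I transactivator (chr8:94434356-94527272, plus strand), which like B2m lies outside chromosome 17. It ranged from 384 to 433 CPM in TLCP, with a median of 400.4, and from 269.6 to 322 CPM in Tfh, with a median of 287. Every TLCP library exceeded every Tfh library. The rise was 1.39-fold (log2 fold change 0.48, SE 0.057, edgeR adjusted p = 2.4e-06), with 0.45 in libraries 1 to 3 and 0.50 in libraries 4 to 6. After H2-Q7 this was the largest log2 fold change of the 10.

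The calls for the 7 genes were the same without the 2 TLCP libraries that held the most immunoglobulin reads (replicates 4 and 5). Without them H2-Q7 stood at 0.60 and Nlrc5 at 0.48 on the log2 scale, and the smallest of the 7 was Tap2 at 0.26 (edgeR adjusted p = 0.0389). The other 4 TLCP libraries still held 5803 to 11337 CPM of B cell markers, above the 2676 CPM that was the highest sum in Tfh. The authors' deposited table also gave an adjusted p under 0.05 to these 7 genes and to none of the other 3, with log2 fold changes of 0.61 for H2-Q7, 0.49 for Nlrc5 and 0.06 for B2m.

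**Figure D2:**
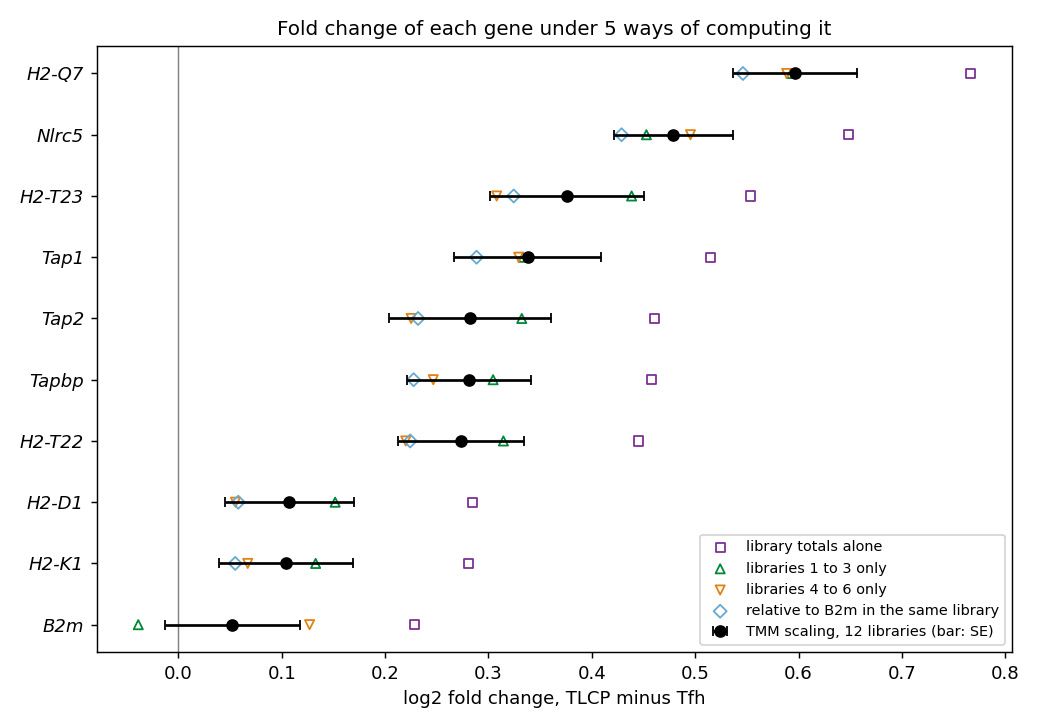
Log2 fold change (horizontal axis, TLCP minus Tfh) of each gene with TMM scaling over 12 libraries (filled circles, bars are SE), with library totals alone, in the libraries numbered 1 to 3 and 4 to 6, and relative to B2m in the same library. H2-Q7 and Nlrc5 lie farthest right under each of these, library totals move all 10 to the right, and B2m alone has a value below 0 (-0.039 in libraries 1 to 3).

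Because scaling moves all genes of a library together, each gene was also divided by B2m, and each heavy chain by H2-K1, within the same library. These 13 ratios were chosen after the values were seen. They were tested by a 2-sided exact permutation test over the 12 libraries (smallest possible p 0.00216), adjusted over the 13. An exact test within the 6 same-numbered pairs, added after seeing the data, cannot go below 0.0312, and none of its adjusted p-values was under 0.0579. Without pairing, 7 of the 9 other genes were higher in TLCP relative to B2m, the same 7 that passed edgeR's test. B2m had the smallest log2 fold change of the described genes (0.05), so dividing by it largely repeats the fold changes above. How many of all tested genes were higher relative to B2m was not counted. Nothing further is therefore drawn from the count of 7. H2-Q7 was higher by 0.55 on the log2 scale (SE 0.063, exact permutation p = 0.00216, adjusted p = 0.00702), Nlrc5 by 0.43 (SE 0.085, exact permutation p = 0.00433, adjusted p = 0.00938) and Tap1 by 0.29 (SE 0.056, exact permutation p = 0.00216, adjusted p = 0.00702). The ranges were apart for H2-Q7 and Tap1 and overlapped for Nlrc5. H2-T23, H2-T22, Tap2 and Tapbp were higher by 0.22 to 0.32, with adjusted exact permutation p-values of 0.00938 to 0.0156. H2-Q7, Nlrc5, Tap1, Tap2 and H2-T22 were higher in 6 of 6 pairs (exact within-pair p = 0.0312 before adjustment), and H2-T23 and Tapbp in 5 of 6 (exact within-pair p = 0.0625). H2-K1 and H2-D1 stood at 0.05 (SE 0.057) and 0.06 (SE 0.055) relative to B2m, with an adjusted exact permutation p of 0.385 for each.

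The ratio of the classical heavy chains varied little. H2-D1 relative to H2-K1 differed by 0.0029 on the log2 scale (SE 0.018, exact permutation p = 0.842), the smallest difference and the smallest error of the 13 ratios. Relative to H2-K1, H2-Q7 was higher by 0.49 (SE 0.080, adjusted exact permutation p = 0.00702), H2-T23 by 0.27 (SE 0.048, adjusted p = 0.00702 in the same exact test) and H2-T22 by 0.17 (SE 0.066, adjusted p = 0.0309 in the same exact test). H2-Q7 and H2-T23 did not overlap between populations in this ratio and were higher in 6 of 6 pairs, while H2-T22 was higher in 5 of 6 (exact within-pair p = 0.0625).

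**Figure D3:**
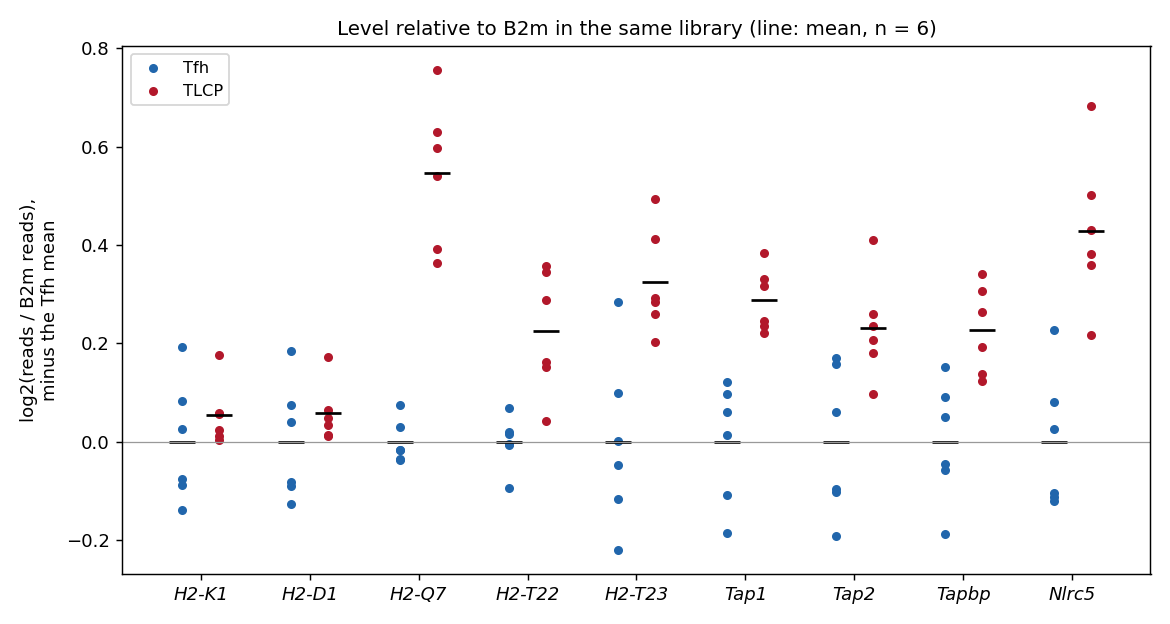
Log2 of each gene's reads over B2m reads in the same library, set to the Tfh mean (vertical axis), for 6 Tfh and 6 TLCP libraries, with lines at the means. The TLCP points of H2-Q7 and Tap1 all lie above the Tfh points, while those of H2-K1 and H2-D1 lie among them.

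Levels between genes were compared per length, as the authors' TPM (transcript abundance corrected for length). The order was the same in both populations: B2m, H2-K1, H2-D1, Tapbp, H2-T23, H2-Q7, Tap1, H2-T22, Nlrc5 and Tap2. In TLCP, B2m stood at 7917 ± 1276 TPM (SD, n = 6), H2-K1 at 1659 ± 222 and H2-D1 at 1222 ± 165. Tapbp followed at 239 ± 35.3, and the lowest was Tap2 at 89.6 ± 14.4 TPM. In Tfh, B2m stood at 6273 ± 1108 TPM, H2-K1 at 1264 ± 187, H2-D1 at 928 ± 125, Tapbp at 161 ± 20.0 and Tap2 at 60.1 ± 7.90. Each of the first 5 genes exceeded the next in 6 of 6 libraries of both populations. Lower in the order the neighbours were not all distinct: H2-T22 exceeded Nlrc5 in 4 of 6 TLCP libraries and 5 of 6 Tfh libraries, and H2-Q7 exceeded Tap1 in 6 of 6 and 4 of 6. These TPM include CT010467.1, a ribosomal RNA-like gene with a mean of 17.3% of assigned reads in TLCP and 24.7% in Tfh, and each TPM depends on that share. A test of TPM between populations is given only among the alternatives.

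Shares within a library do not depend on that gene. Of the TPM of the 5 heavy chains together, H2-K1 held 48.7% ± 0.735 in TLCP and 50.3% ± 0.594 in Tfh (SD, n = 6), and H2-D1 35.9% ± 0.338 and 37.0% ± 0.399. H2-Q7 held 5.38% ± 0.383 in TLCP and 3.96% ± 0.393 in Tfh, H2-T23 6.31% ± 0.354 and 5.40% ± 0.274, and H2-T22 3.70% ± 0.276 and 3.39% ± 0.216. The 3 nonclassical chains among these 5 had larger mean shares in TLCP. Ranges were separate for H2-Q7 (4.90% to 5.76% against 3.39% to 4.38%) and for H2-T23 (5.92% to 6.92% against 5.07% to 5.79%). Other heavy chain genes were left out, among them H2-Q4 (mean 450 CPM in TLCP and 468 in Tfh) and H2-Q6 (362 and 307 CPM). Both were above H2-Q7, at 297 and 196 CPM. B2m stood at 2.32 ± 0.0987 times the sum of the 5 heavy chains in TLCP and 2.49 ± 0.195 times in Tfh, with overlapping ranges. These sums are descriptions without a test.

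Likeness of pattern was measured as the root mean square distance of centred log2 CPM over the 12 libraries, which share depth and scaling. H2-D1 was the gene nearest to H2-K1 among 12014, at 0.0278, against a median of 0.29 over all genes. The nearest genes outside the pathway list were Hcfc1 (0.0344), Psmb8 (0.0493), Smarca4 (0.0507), Stk11 (0.0581) and Rfc2 (0.0591), and B2m ranked 94 (0.0941). For Nlrc5 the nearest genes outside the list were Usp48 (0.0678), Foxn3 (0.068), Fnbp4 (0.0794), Parp14 (0.0826) and Cntrl (0.0832), against a median of 0.378. Among the members H2-Q7 was the nearest to Nlrc5 (rank 17, 0.0985), while H2-K1 and H2-D1 ranked 1541 and 1500. The centring was over both populations, so the distance also holds the difference between them, which was largest for H2-Q7 and Nlrc5 among the members. It does not show whether genes vary together within a population.

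Along chromosome 17 the class I genes did not share a single fold change. Tap1 and Psmb9, an immunoproteasome gene, start 211 bases apart on opposite strands, and their log2 fold changes were alike at 0.34 (SE 0.071) and 0.32 (SE 0.082). Psmb8 and Tap2 lie next to each other in the same orientation and stood at 0.09 (SE 0.070) and 0.28 (SE 0.078). The Q region held the widest range, from H2-Q2 at -2.54 (SE 0.33) to H2-Q7 at 0.60, and its members H2-Q4 and H2-Q6, named after their values were seen, stood at -0.06 (SE 0.087) and 0.24 (SE 0.056). In the T region, H2-T24, H2-T23, H2-T22 and H2-T10 were all higher in TLCP, at 0.27 to 0.58. The opposite strand held 0.357% to 3.26% of the reads at each of the 10 members, so the overlapping ends of Tap1 and Psmb9 were counted apart.

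In the 6 lists of other genes that act in or on the pathway, changes went both ways. Of 66 listed genes 62 were in the files under the listed symbol and 54 could be tested, of which 18 rose (33.3%), 11 fell (20.4%) and 25 did not pass. Their median log2 fold change was 0.06. Over all tested genes 16.8% rose and 16.4% fell. Without TLCP replicates 4 and 5 the counts were 17 and 10.

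Of the other heavy chain genes 11 of 22 could be tested, 5 rose, 1 fell and 5 did not pass (median 0.19). H2-Q5 stood at 57.7 ± 6.15 CPM in TLCP and 40.0 ± 3.35 in Tfh (log2 fold change 0.53, edgeR adjusted p = 9.7e-05), and H2-T10 at 34.5 ± 3.59 and 23 ± 2.48 (0.58, adjusted p = 0.000148). Of the 50-base words of H2-Q5, 36.4% also occurred in another gene, with 25.5% in H2-Q7. For H2-T10 it was 32.9%, with 31.7% in H2-T22. The levels of both genes are therefore uncertain. H2-T24 stood at 67.6 ± 7.25 and 49.8 ± 5.33 CPM (0.44, adjusted p = 0.000662). H2-Q2 went the other way, with 11.6 to 40.7 CPM over the TLCP libraries and 102 to 246 CPM over the Tfh libraries. It was lower in TLCP in 6 of 6 pairs, 5.83-fold on average (log2 fold change -2.54, SE 0.33, edgeR adjusted p = 0.000182). Of its 100-base words 5.09%, and of its 50-base words 12.9%, also occurred in H2-Q1. Fcgrt, the neonatal Fc receptor gene that B cells and myeloid cells also use, was low in both populations, at 2.74 ± 1.06 CPM and 0.623 ± 0.313 CPM (2.09, adjusted p = 0.000622), and it rose beside the B cell markers, whose part was not tested.

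Of 13 tested genes of peptide loading and trimming 2 rose, 2 fell and 9 did not pass (median -0.07). Calr, the gene of the chaperone calreticulin in the loading complex, stood at 616 ± 66.4 CPM in TLCP and 494 ± 59.4 in Tfh (0.32, edgeR adjusted p = 0.0054). Tapbpl, the gene of the tapasin-related editor TAPBPR, stood at 65.4 ± 5.43 and 51.0 ± 4.72 CPM (0.36, adjusted p = 0.00195). Of the cytosolic peptidase genes, Blmh fell by 0.37 on the log2 scale (edgeR adjusted p = 0.000353) and Npepps by 0.28 (edgeR adjusted p = 0.00843), and TLCP was lower in 6 of 6 pairs for both.

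The immunoproteasome replaces the catalytic subunits of the constitutive proteasome in lymphocytes and after interferon. Of its 6 genes 2 rose, 1 fell and 3 did not pass (median 0.14). Psmb9 stood at 103 ± 7.27 CPM in TLCP and 82.7 ± 9.99 in Tfh (0.32, edgeR adjusted p = 0.00483) and Psmb10 at 42.8 ± 3.83 and 31.6 ± 8.59 (0.44, adjusted p = 0.0259). The catalytic subunit gene Psmb8 stood at 0.09 (adjusted p = 0.352), and the activator genes Psme1 and Psme2 at -0.06 (adjusted p = 0.606) and 0.19 (adjusted p = 0.082). Pomp, the gene of the assembly factor, fell by 0.31 on the log2 scale (adjusted p = 0.00839). Of the 3 constitutive catalytic genes Psmb7 fell by 0.35 (adjusted p = 0.00641) and the other two did not pass (median -0.17).

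Of 14 transactivator and promoter factor genes 5 rose, 3 fell and 6 did not pass (median 0.13). Irf1, an interferon-induced activator of class I and TAP genes, ranged from 249 to 362 CPM in TLCP and from 147 to 224 CPM in Tfh, without overlap (log2 fold change 0.72, SE 0.11, edgeR adjusted p = 0.00017). Irf2, which binds the same element, stood at 162 ± 15.9 and 130 ± 5.69 CPM (0.32, adjusted p = 0.000958). Nfya, of the CCAAT-binding complex, stood at 64.1 ± 9.96 and 46.9 ± 7.22 CPM (0.45, adjusted p = 0.00436), while its partners Nfyb and Nfyc, named after their values were seen, stood at -0.30 (adjusted p = 0.0143) and -0.15 (adjusted p = 0.383). Atf1, of a CRE-binding family, fell by 0.30 (adjusted p = 0.0063). Ciita, the class II transactivator that is abundant in B cells, ranged from 28.5 to 113 CPM in TLCP and from 4.69 to 24.5 CPM in Tfh (2.13, SE 0.43, adjusted p = 0.00335). Its log2 fold change lay beside those of the B cell markers, whose median was 2.04, and their part in it was not tested.

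All 7 interferon receptor and kinase genes passed the test, 4 higher and 3 lower in TLCP (median 0.38). Ifngr1, a chain of the interferon-gamma receptor, ranged from 88.8 to 159 CPM in TLCP and from 21.9 to 50.5 CPM in Tfh (1.69, SE 0.23, edgeR adjusted p = 0.000158). For the type I receptor, Ifnar1 rose (0.38, adjusted p = 0.000135) and Ifnar2 fell (-0.49, adjusted p = 0.000323). The kinase gene Tyk2 stood at 91.2 ± 12.1 and 58.0 ± 9.99 CPM (0.65, adjusted p = 0.000167), and Jak2 at 352 ± 40.5 and 575 ± 70.1 CPM (-0.71, adjusted p = 3.0e-06). Receptor and kinase genes thus did not move in a single direction.

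**Figure D4:**
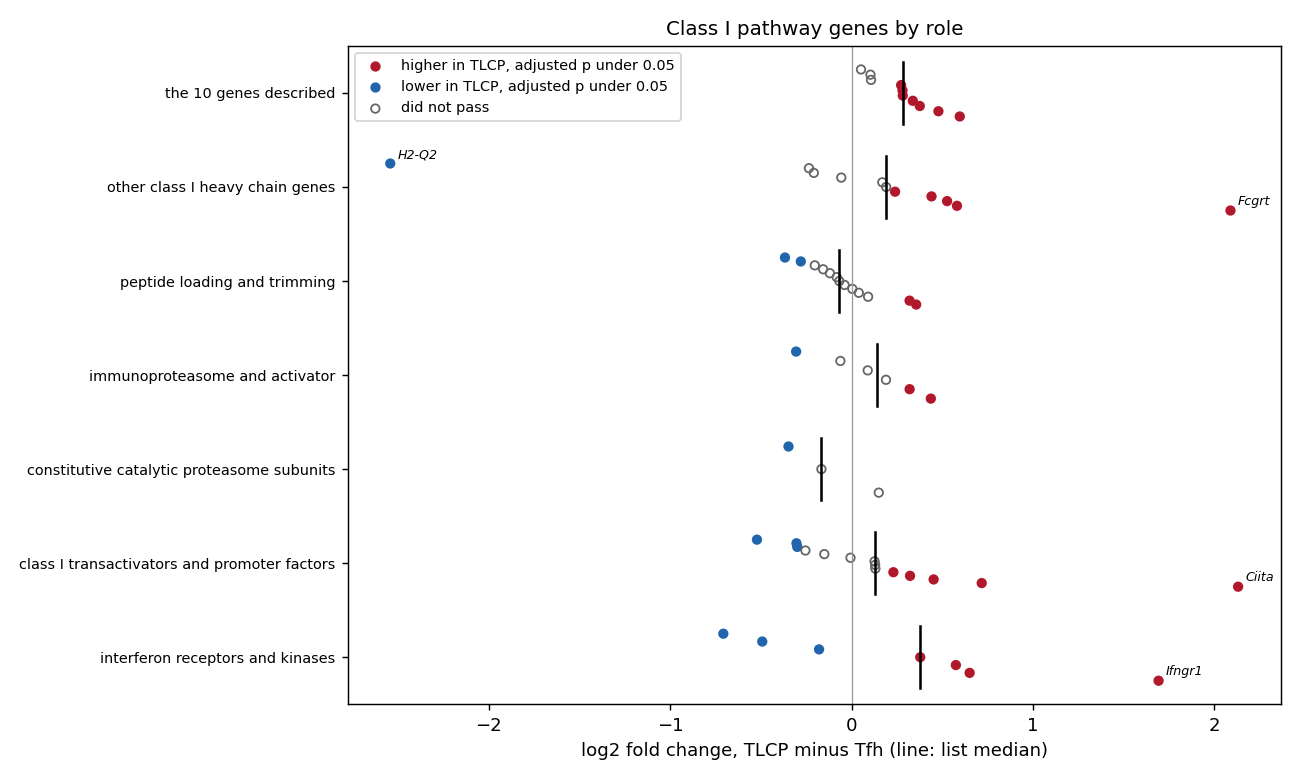
Log2 fold change (horizontal axis, TLCP minus Tfh) of each tested gene in the 10 described genes and 6 further lists (rows), filled where edgeR's adjusted p was under 0.05, with a line at each list's median. The described genes lie between 0.05 and 0.60, while the other lists hold genes on both sides of 0, from H2-Q2 at -2.54 to Ciita at 2.13.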

How the data were processed

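Per the labels' protocols, splenic CD4 T cells were isolated magnetically and then sorted by flow cytometry, and KAPA HyperPrep libraries were made from their poly(A) RNA. The submitters' processing notes name STAR 2.7.1a, bcl2fastq 2.20, DESeq2 1.30.1 and the build GRCm38, and no annotation release. The authors deposited raw read counts per gene for each library, of which the sense-strand column was used. Reads assigned to no gene (44.9% to 56.4%) stayed out. The authors' TPM served for levels per length. In the authors' deposited result table are the log2 fold changes, Wald scores and p-values of their comparison, and a signal per library that is the count divided by a size factor. Whole reads recovered from that signal (100% of values within 0.01 reads) equalled the counts, and edgeR called 3983 genes on them.

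Counts were fitted in R 4.3.3 with edgeR 4.0.16 (filterByExpr, TMM, robust quasi-likelihood test, 2-sided, Benjamini-Hochberg over 12015 genes, threshold 0.05). This called 3983 genes. Log2 fold changes are TLCP minus Tfh, SE is the absolute log2 fold change over the square root of F, and CPM are TMM-scaled. The distance of patterns used log2(CPM + 0.5). Ratios were tested in SciPy 1.17.1. Gene spans are from GENCODE M21, and promoters are from RefSeq; no entry matched Nlrc5 or Tap2.

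The members and lists were chosen with earlier results of these data known. Named are all members, per list the up to 5 genes with the smallest p among those that passed, every immunoproteasome gene, the 5 genes nearest to Nlrc5 and to H2-K1, and genes of the sort. H2-Q8, H2-Q9, H2-T9 and Nrdc were not found under those symbols.

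Libraries are numbered 1 to 6 in both populations. The correlation of deviations from the population means was 0.127 to 0.318 between same-numbered libraries and up to 0.209 between others. These values overlap and do not settle whether same-numbered libraries pair. The main edgeR fit and the exact permutation test over the 12 libraries did not use pairs. Only the counts over same-numbered pairs and the exact within-pair test did, and a fit with the number as a block was an alternative. Nothing else in the labels says which libraries share a mouse, so p-values measure the spread between these libraries. Alternatives were other scalings, DESeq2 1.42.0, limma 3.58.1 (voom, and log2(TPM + 1) or log2(TPM + 0.1)), other filters, unstranded counts, leaving out each library or gene class, and libraries numbered 1 to 3 or 4 to 6 only. Recovered reads, leaving out the 2 TLCP libraries richest in immunoglobulin, the ratios with both their tests, and the motif GAANNGAAA were chosen after seeing the data. No label names a batch.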

Additional observations from a re-analysis of the deposited data

Results flagged for a closer look

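The 10 members and 26 other named pathway genes were screened for a library far from the other 5 of its population, by the gap to the nearest library over the whole range (critical value 0.625 for 6 libraries). Of 72 groups 2 exceeded it, and chance alone gives about 1 in 20.

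H2-Q7 in Tfh replicate 4 was 174.193 CPM, the lowest of its population, with the next library at 196.73 CPM and a gap over range of 0.642. That library was the shallowest, with 6939770 assigned reads and 1094 reads of H2-Q7. Without it H2-Q7 remained higher in TLCP.

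Ciita in TLCP replicate 6 was 112.717 CPM, the highest of its population, with the next library at 59.9617 CPM and a gap over range of 0.627. The summed B cell markers of that library, 11337 CPM, were below those of TLCP replicates 4 and 5 (18532 and 24996 CPM). Ighm was the largest part of such sums, with a mean of 10855 CPM in TLCP against 645 CPM for Cd74, the next marker. The sums thus say little about the other B cell markers, and the part of B cells in the Ciita value was not tested.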

How the results depend on the processing

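The count of 7 members higher and 0 lower was unchanged with the other size factors, DESeq2, limma voom, the other filters and unstranded counts. It was also unchanged without ribosomal or B cell genes and without the 2 TLCP libraries richest in immunoglobulin (genes called 3114 to 4435 over all these). Leaving out B cell genes removed only their own counts, and any class I reads from B cells stayed in the members' counts. That setting therefore cannot show the part of B cells. Libraries 1 to 3 alone (3336 genes called) and leaving out any single library (3489 to 4008) also gave 7 and 0. The replicate block also left 7 and 0, called 4453 genes in all and changed no call among the members. Library totals alone and limma on TPM gave 9 higher and 0 lower, adding H2-K1 (0.28, and 0.39 on TPM) and H2-D1 (0.28, and 0.40 on TPM). These settings moved the median of all genes to 0.17 and to 0.26 or 0.29, and 78.2% and 86.9% to 87% of called genes were then higher, against 50.6%. Libraries 4 to 6 alone gave 5 members, without H2-T22 and Tap2. B2m reversed in libraries 1 to 3, at -0.039 (edgeR adjusted p = 0.712). Of the 54 tested genes of the wider lists, the 11 lower became 3 with library totals, 1 with log2(TPM + 1), 1 with log2(TPM + 0.1) and 7 in libraries 4 to 6. The cause of these changes was not tested. Shares of the heavy chains moved by less than 1 SD when computed from counts per length. Depth limits Tap2 most among the members, with 674 to 1605 reads per library.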
